A study of Homo sapiens with 8 samples.

Results

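The transcripts described here are 10 listed hypoxia factors and targets outside glycolysis, namely HIF1A, EPAS1, CA9, CA12, NDRG1, EGLN3, ANKRD37, BNIP3, BNIP3L and ADM. They were taken by gene symbol from a read-count table of 23393 genes, whatever their level, and all 10 were among the 15262 genes that passed the filter on low counts. The members and the other gene lists were chosen with earlier results of these data known. Their counts, set beside the shares of all tested genes, are descriptions. The cells were MDA-MB-231, an established human breast cancer line of mesenchymal type that lacks the estrogen and progesterone receptors. RNA-seq was carried out on 4 groups of 2 libraries each. The parental control group was grown without arginine deiminase (ADI), an enzyme that degrades arginine. The parental ADI group received ADI at 0.3 µg/mL for 48 h. The ρ0 control and ρ0 ADI groups were the same 2 conditions in clone 27 of MDA-MB-231 ρ0 cells, which were depleted of mitochondrial DNA with ethidium bromide. The labels place ADI in full growth medium, whereas the methods of the study describe medium without arginine, and both are called arginine starvation here. The ρ0 line is 1 clone and was maintained with added pyruvate, uridine and ethidium bromide, so that clone, supplements and loss of mitochondrial DNA cannot be told apart in any comparison between the lines.

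HIF1A and EPAS1 encode HIF-1α and HIF-2α, the oxygen-labile subunits of the hypoxia-inducible factors. In oxygenated cells, the prolyl hydroxylases of the EGLN family modify these subunits, using oxygen, iron and α-ketoglutarate, and the VHL ubiquitin ligase then marks them for degradation. When oxygen is low, the α subunits accumulate, pair with ARNT and bind hypoxia response elements near target genes. The targets followed here act in oxygen sensing (EGLN3), in pH control at the cell surface (CA9 and CA12), in the removal of mitochondria (BNIP3 and BNIP3L), in stress responses (NDRG1) and in signalling to vessels (ADM). Because the α subunits are controlled largely as proteins, their transcript levels are not a measure of HIF activity.

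Library totals ranged from 25259503 to 31022155 counts. The ρ0 control replicates stood apart from each other, and their biological coefficient of variation was 25%, compared with 5.18% in parental control, 2.25% in parental ADI and 1.83% in ρ0 ADI. Over the 7 members with at least 1 CPM (the count scaled to library size) in every library, the higher replicate was 1.07 to 1.83 times the lower one in ρ0 control and at most 1.20 times in the other groups. The mesenchymal markers VIM, CD44, AXL, CAV1 and MSN were detected in every library, each at 97.3 CPM or more, and ESR1 and PGR had at most 6 and 1 counts. From the same luminal and epithelial list, ERBB2 and GATA3 were detected in every library. ERBB2 had 759 to 1918 counts in the parental and 1497 to 2702 in the ρ0 libraries, and GATA3 had 121 to 157 and 250 to 579. The epithelial genes CDH1 and EPCAM had at most 2 and 15 counts in the parental libraries and 104 to 457 and 397 to 697 counts in the ρ0 libraries, and their part in the differences between the lines was not tested. Genes encoded by mitochondrial DNA were not analysed here, because 0 of 13 were listed, so the ρ0 label could not be checked.

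RefSeq promoters of the members (GRCh38.p14, 250 bases before to 50 bases after the start) were searched on both strands for ACGTG and GCGTG. These are the 5-base cores of the hypoxia response element. Of the 10 members, 8 had an entry, and 7 of these 8 held a core, in HIF1A at 1 of its 2 starts. A core was found in 58.8% of the 16316 promoters of tested genes and in 48.4% of all 35116 promoters. These shares count promoters, whereas the 7 of 8 counts genes. ACGTG was found in CA9, ANKRD37 and BNIP3, and in 24.7% of the promoters of tested genes. A match is a string of letters and no evidence of binding. The stretches with the cores are printed on the strand of each gene, 5′ to 3′, with the core or its reverse complement in capitals and with up to 25 bases on each side, cut at the far edge of the window or at the start site.
HIF1A, chr14:61695284-61695338, plus strand: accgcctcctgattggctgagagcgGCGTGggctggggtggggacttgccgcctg
EPAS1, chr2:46297265-46297319, plus strand: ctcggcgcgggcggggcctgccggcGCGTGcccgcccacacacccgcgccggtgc
CA9, chr9:35673885-35673927, plus strand: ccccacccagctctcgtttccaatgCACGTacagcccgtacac
CA12, chr15:63382051-63382096, minus strand: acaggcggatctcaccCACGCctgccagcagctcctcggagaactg
ANKRD37, chr4:185396654-185396727, plus strand: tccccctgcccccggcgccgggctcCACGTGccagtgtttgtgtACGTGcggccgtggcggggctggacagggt
BNIP3, chr10:131981998-131982091, minus strand: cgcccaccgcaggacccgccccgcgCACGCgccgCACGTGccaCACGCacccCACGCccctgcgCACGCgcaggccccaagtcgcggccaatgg
ADM, chr11:10304947-10305001, plus strand: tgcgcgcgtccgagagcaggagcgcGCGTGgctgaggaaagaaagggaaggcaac
BNIP3 held the most cores, with 4 reverse complements of GCGTG around a CACGTG palindrome, which reads as ACGTG on both strands and so counts as 2 overlapping matches. ANKRD37 held such a palindrome and another ACGTG downstream of it. A second CA12 match, at position 40, lies after the start and is not shown. No core was found in the EGLN3 window.

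**Figure D1:**
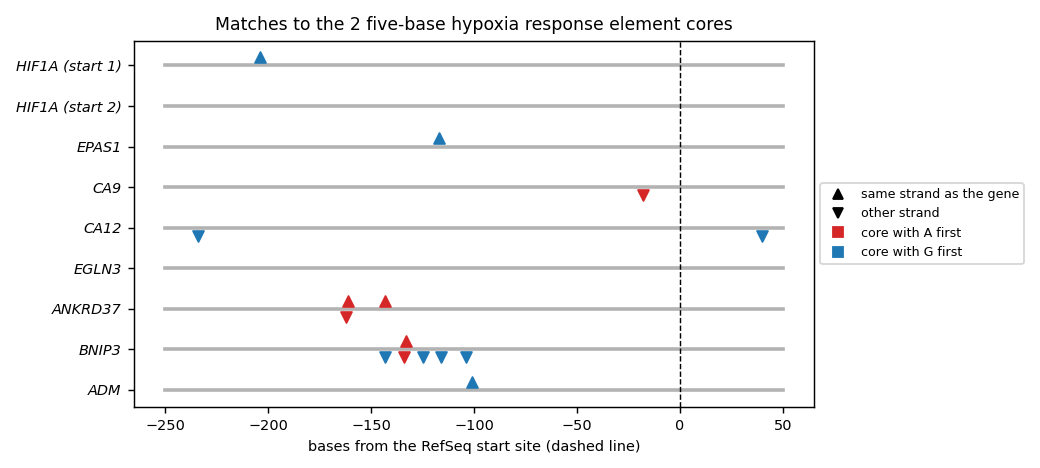
Positions of ACGTG (red) and GCGTG (blue) in the RefSeq promoter windows of 8 members, in bases from the start site, with upward triangles for the gene's own strand and downward triangles for the other strand. BNIP3 shows 6 triangles between -143 and -104, and EGLN3 and the second HIF1A start show none.

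Arginine starvation was followed by lower transcripts of most of the 8 targets among the members in parental cells and by a mixed pattern in ρ0 cells. In parental cells, 6 of the 10 members were lower after ADI (CA9, CA12, NDRG1, EGLN3, BNIP3 and BNIP3L) and 3 were higher (HIF1A, EPAS1 and ADM) at a Benjamini-Hochberg adjusted p under 0.05 in edgeR's quasi-likelihood test. Over all tested genes, 35.5% were called lower and 30.4% higher in that comparison (65.9% in all). In ρ0 cells, 3 members were lower (CA9, CA12 and EGLN3) and 3 were higher (HIF1A, EPAS1 and BNIP3L), with 22.1% of all tested genes lower and 19.2% higher (41.3% in all). The ρ0 calls of CA12, EGLN3 and BNIP3L were lost with each line fitted alone (adjusted p = 0.147, 0.06 and 0.0568 in edgeR). With the fold threshold of the study added, which asks for a log2 change past 1 or past -1, the parental counts were 5 lower and 1 higher (background 22.1% and 12.7%) and the ρ0 counts were 1 lower and 1 higher (background 8.18% and 4.22%). The median log2 fold change of the members was -0.89 in parental cells, against -0.07 over all tested genes, and 0.24 in ρ0 cells, against -0.02. The 2 groups did not overlap for 3 members that were higher and 6 that were lower in parental cells, and for 5 and 4 in ρ0 cells, where 41.9%, 47.3%, 32.9% and 34.5% of all tested genes did so. In RNA from whole cultures, fewer cells with a transcript and less of it per cell cannot be told apart.

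**Figure D2:**
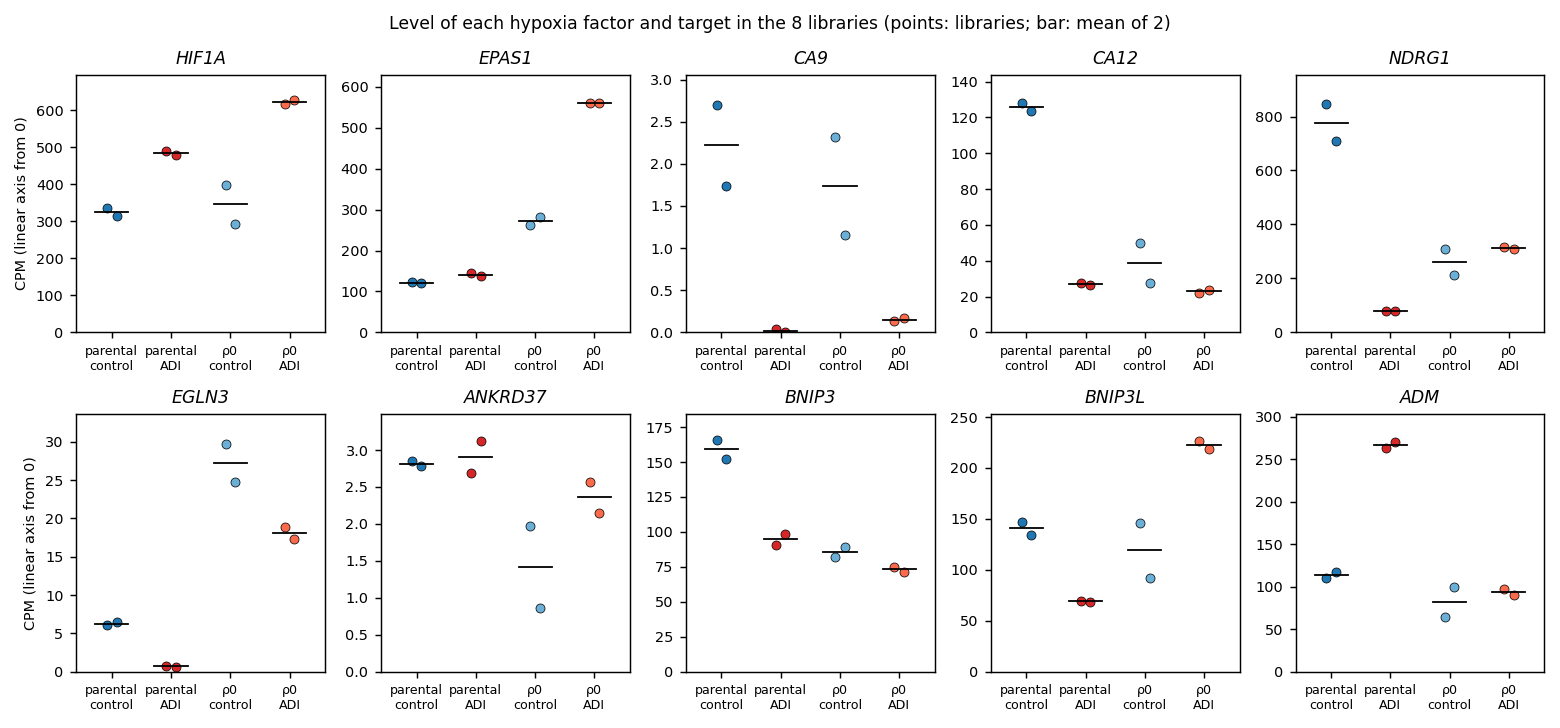
CPM of each member in the 8 libraries on linear axes that start at 0, 1 panel a gene, with points for libraries and a bar for the mean of 2. NDRG1 falls from 777 to 79.0 CPM in parental cells while the ρ0 groups sit at 259 and 314, and the ρ0 control points are the most widely spaced in most panels.

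Of the factors, HIF1A was higher after starvation in both lines. Its level was 335 and 313 CPM in the parental control replicates and 490 and 479 CPM in parental ADI. In ρ0 cells it was 398 and 294 CPM in control and 615 and 628 CPM in ADI. Every ADI library therefore stood above every control library of either line. The log2 fold change was 0.58 ± 0.14 (SE, n = 2 per group, adjusted p = 0.0067) in parental cells and 0.85 ± 0.14 (adjusted p = 0.00269) in ρ0 cells. The difference between these responses, 0.27 ± 0.19, did not pass the test (adjusted p = 0.305). It was 0.51 without ρ0 control replicate 1. Leaving out a ρ0 control library leaves 1 in the most widely spread group, so only the size is given for single transcripts there. In control medium the lines overlapped, and after starvation HIF1A was 1.28-fold higher in ρ0 cells (adjusted p = 0.0478). That call was lost without any 1 of the parental control, parental ADI or ρ0 ADI libraries (adjusted p from 0.0772 to 0.172), and the parental response missed the threshold without parental control replicate 2 (adjusted p = 0.0551). Without ρ0 control replicate 1, HIF1A in control medium was lower in ρ0 cells by a log2 value of -0.14, and without replicate 2 it was higher by 0.35.

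EPAS1 differed between the lines in both media. Its level was 123 and 120 CPM in parental control, 145 and 137 CPM in parental ADI, 263 and 281 CPM in ρ0 control and 561 and 559 CPM in ρ0 ADI. The 4 groups were thus ordered without overlap, with both ρ0 groups above both parental ones. Starvation was followed by a 2.06-fold higher level in ρ0 cells (log2 1.04 ± 0.08, SE, adjusted p = 0.000163). In parental cells the fold was 1.16 (log2 0.21 ± 0.08, adjusted p = 0.0412), and this call depended on the processing: it was lost without any 1 of the parental or ρ0 ADI libraries (adjusted p from 0.0554 to 0.242) and with total counts or the upper quartile as the scale (0.05 and 0.09, adjusted p = 0.61 and 0.334). The response was larger in ρ0 cells by 0.83 ± 0.11 on the log2 scale (adjusted p = 0.00146). Between the lines, EPAS1 was 2.24-fold higher in ρ0 cells in control medium (adjusted p = 1.59e-05) and 3.98-fold higher after starvation (adjusted p = 1.64e-06).

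EGLN3, the prolyl hydroxylase PHD3, differed the most between the starved lines among the members that passed the test. It had 202 and 187 counts in parental control, 20 and 19 in parental ADI, 856 and 768 in ρ0 control and 560 and 419 in ρ0 ADI. In CPM this was 6.06 and 6.5, then 0.792 and 0.673, then 29.7 and 24.7, and then 18.9 and 17.4. All groups were apart, and the lowest ρ0 library was above the highest parental one. Starvation was followed by an 8.54-fold lower level in parental cells (log2 -3.09 ± 0.19, adjusted p = 1.42e-05) and a 1.5-fold lower level in ρ0 cells (log2 -0.58 ± 0.13, adjusted p = 0.0109). These responses differed by 2.51 ± 0.23 (adjusted p = 0.00047). EGLN3 was 4.33-fold higher in ρ0 than in parental control cells (adjusted p = 1.61e-05) and 24.7-fold higher after starvation (adjusted p = 1.62e-06). The ρ0 response missed the threshold without either ρ0 ADI replicate (adjusted p = 0.0633 and 0.108) and with each line fitted alone (adjusted p = 0.06).

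CA9 and CA12 encode carbonic anhydrases that face the outside of the cell and convert carbon dioxide and water to bicarbonate and protons. CA9 was a rare transcript, with 90 and 50 counts in parental control, 1 and 0 in parental ADI, 67 and 36 in ρ0 control and 4 and 4 in ρ0 ADI. Both starved groups were below both control groups. Summed over replicates and corrected for library size, parental control had 120 times the level of parental ADI, with an exact 95% interval of 21.3 to 4790, and ρ0 control had 11.5 times that of ρ0 ADI, with an interval of 5.64 to 27.5. These intervals cover counting error only. Both differences passed the test (adjusted p = 0.00025 and 0.00294). The lines overlapped in control medium. After starvation, 8 counts in ρ0 against 1 in parental cells gave a ratio of 7.96 with an interval of 1.07 to 353. Neither this difference nor that of the responses passed the test (adjusted p = 0.103 and 0.111). Both passed in limma-voom with a weight per group (adjusted p = 0.00271 and 0.0304). The first also passed in edgeR with the replicate number as a block (adjusted p = 0.0481). The log2 value of the first was 2.74 without ρ0 control replicate 1 and 2.76 without replicate 2. That of the second was 3.69 without replicate 1. In control medium, the log2 difference of ρ0 from parental cells in CA9 was -0.95 without ρ0 control replicate 1 and 0.1 without replicate 2.

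CA12 was the more abundant of the pair. Its level was 128 and 123 CPM in parental control and between 22.1 and 49.9 CPM in the other 6 libraries, at 27.7 and 26.4 in parental ADI, 49.9 and 27.3 in ρ0 control and 22.1 and 23.6 in ρ0 ADI. The parental control group therefore stood apart from the rest. The log2 fold change on starvation was -2.22 ± 0.25 in parental cells (adjusted p = 0.000166) and -0.76 ± 0.24 in ρ0 cells (adjusted p = 0.0403), a difference of 1.46 ± 0.34 (adjusted p = 0.013). CA12 was 3.26-fold lower in ρ0 than in parental control cells (adjusted p = 0.000603). After starvation the groups did not overlap, but the difference of -0.24 ± 0.24 did not pass (adjusted p = 0.405). It passed in limma-voom with a weight per group (-0.24, adjusted p = 0.00555). The difference was -0.24 without ρ0 control replicate 1 and -0.21 without replicate 2. The ρ0 response missed the threshold in limma-voom (adjusted p = 0.0696) and with each line fitted alone (adjusted p = 0.147). It was also lost without any 1 of the parental or ρ0 ADI libraries, and was -0.26 without ρ0 control replicate 1. The difference between the responses missed the threshold without parental control replicate 1, parental ADI replicate 2 or ρ0 ADI replicate 2 (adjusted p from 0.0523 to 0.0558).

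NDRG1, a stress-responsive gene widely used as a marker of hypoxia, had the largest difference in response among the members that passed that test. It was at 846 and 708 CPM in parental control and at 79.9 and 78.1 CPM in parental ADI. In ρ0 cells it was at 307 and 211 CPM in control and at 318 and 310 CPM in ADI. The parental control libraries were the highest of the 8 and the parental ADI libraries the lowest. Starvation was followed by a 9.84-fold lower level in parental cells (log2 -3.30 ± 0.19, adjusted p = 1.21e-05). In ρ0 cells the log2 value was 0.28 ± 0.17 and did not pass (adjusted p = 0.231), and it was 0.57 without ρ0 control replicate 1. The responses differed by 3.58 ± 0.25 (adjusted p = 0.000199). NDRG1 was 3-fold lower in ρ0 than in parental cells in control medium (adjusted p = 0.000169) and 3.97-fold higher after starvation (adjusted p = 5.18e-05).

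ANKRD37, a small ankyrin repeat protein whose gene is bound by HIF-1, was measured at 27 to 95 counts per library. The CPM were 2.85 and 2.78 in parental control, 2.69 and 3.12 in parental ADI, 1.98 and 0.868 in ρ0 control and 2.57 and 2.15 in ρ0 ADI. The ρ0 control replicates lay the farthest apart of any group. Neither response passed the test, with log2 values of 0.05 ± 0.33 (adjusted p = 0.908) in parental and 0.74 ± 0.35 (adjusted p = 0.13) in ρ0 cells, and their difference of 0.69 ± 0.48 did not pass either (adjusted p = 0.283). The value in ρ0 cells was 1.45 without ρ0 control replicate 1, and the difference was then 1.40. In control medium ANKRD37 was 1.99-fold lower in ρ0 cells (adjusted p = 0.0372). That call was lost without any 1 library other than ρ0 control replicate 1. The log2 value was -1.69 without ρ0 control replicate 1 and -0.45 without replicate 2. Its locus overlaps LRP2BP and UFSP2 in RefSeq, which had 47 to 257 and 489 to 854 counts, and whether reads were counted by strand is not given in the sources used here.

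BNIP3 and BNIP3L encode related receptors on the outer mitochondrial membrane that recruit the autophagy machinery. BNIP3 was at 166 and 152 CPM in parental control, 90.6 and 98.6 CPM in parental ADI, 82.3 and 89.5 CPM in ρ0 control and 75.0 and 71.4 CPM in ρ0 ADI. It was highest in parental control, and the other 3 groups lay close together. The log2 fold change on starvation was -0.75 ± 0.09 in parental cells (adjusted p = 0.000227) and -0.23 ± 0.09 in ρ0 cells (adjusted p = 0.0745), with a difference of 0.52 ± 0.13 (adjusted p = 0.0151). Without parental control replicate 1, parental ADI replicate 1 or either ρ0 ADI replicate, that difference missed the threshold. The ρ0 value was -0.29 without ρ0 control replicate 1. BNIP3 was lower in ρ0 than in parental cells in both media, by 1.85-fold in control (adjusted p = 0.000108) and 1.29-fold after starvation (adjusted p = 0.00756), the latter not without parental ADI replicate 2 or ρ0 ADI replicate 2 (adjusted p = 0.0733 and 0.0856). BNIP3 overlaps PPP2R2D, which had 528 to 1764 counts.

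BNIP3L moved in opposite directions in the 2 lines. Its level was 147 and 135 CPM in parental control and 69.5 and 68.9 CPM in parental ADI, and 146 and 92.2 CPM in ρ0 control and 226 and 219 CPM in ρ0 ADI. The control groups overlapped, and the starved groups lay below and above them. BNIP3L was 2.04-fold lower after starvation in parental cells (log2 -1.03 ± 0.19, adjusted p = 0.00213) and 1.87-fold higher in ρ0 cells (log2 0.90 ± 0.19, adjusted p = 0.00773). The responses differed by 1.93 ± 0.27 (adjusted p = 0.0019), and BNIP3L was 3.22-fold higher in ρ0 than in parental cells after starvation (adjusted p = 0.000177). The ρ0 response missed the threshold without ρ0 ADI replicate 1 (adjusted p = 0.051) and with each line fitted alone (adjusted p = 0.0568). In control medium, the log2 difference of ρ0 from parental cells in BNIP3L was -0.61 without ρ0 control replicate 1 and 0.1 without replicate 2.

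ADM, which encodes the vasodilator peptide adrenomedullin, was the target that went up in parental cells. Its level was 111 and 117 CPM in parental control and 263 and 270 CPM in parental ADI. In ρ0 cells it was 64.4 and 99.4 CPM in control and 97.5 and 89.8 CPM in ADI, where the groups overlapped. The parental ADI libraries were the highest of the 8. The log2 fold change on starvation was 1.23 ± 0.18 in parental cells (2.34-fold, adjusted p = 0.000672) and 0.19 ± 0.18 in ρ0 cells (adjusted p = 0.425). The ρ0 value was 0.56 without ρ0 control replicate 2 and -0.08 without replicate 1. The difference of -1.04 ± 0.25 (adjusted p = 0.0158) missed the threshold when any 1 library was left out other than the ρ0 control libraries and ρ0 ADI replicate 1 (adjusted p from 0.0545 to 0.0686). ADM was 2.85-fold lower in ρ0 than in parental cells after starvation (adjusted p = 0.000235). In control medium it was 1.39-fold lower in ρ0 than in parental cells, with an adjusted p of 0.0509. This miss depended on the processing. With DESeq2 size factors in edgeR it remained. With total counts or the upper quartile as the scale, other filters, the replicate number as a block, DESeq2 or limma-voom, the difference passed (adjusted p from 0.0296 to 0.0495). The log2 value was -0.19 without ρ0 control replicate 1 and -0.77 without replicate 2.

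**Figure D3:**
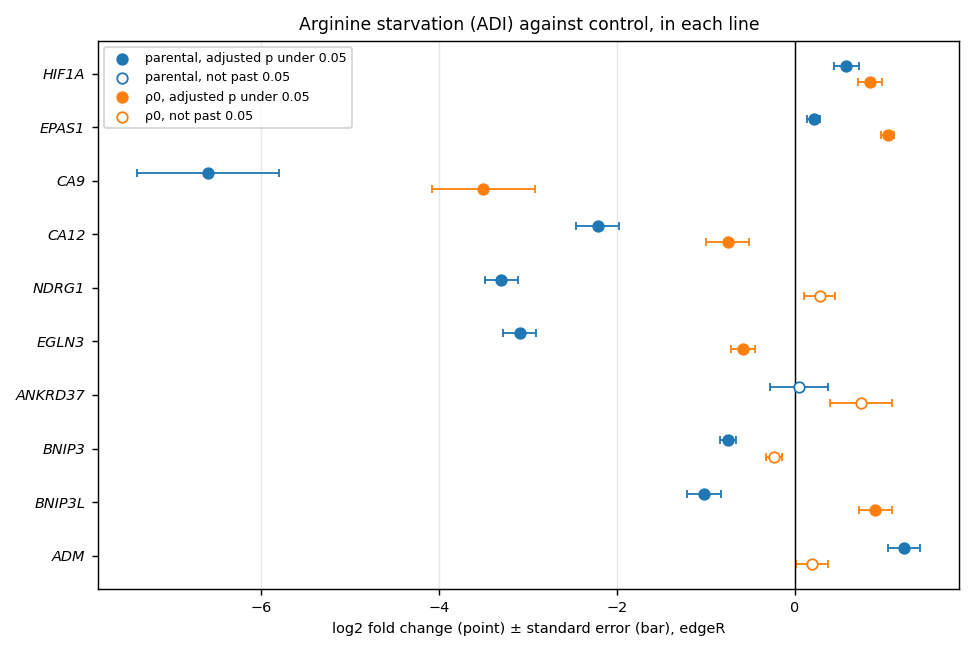
Log2 fold change on starvation of each member in parental (blue) and ρ0 (orange) cells, from edgeR, with filled points for an adjusted p under 0.05. The SE bars come from the fit to all 8 libraries, 2 per group, and do not show the spread of each group. NDRG1 lies at -3.30 and 0.28 and BNIP3L at -1.03 and 0.90, and the value of CA9, which rests on few counts, depends on the small count that edgeR adds before taking logs.

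The comparison of the lines asked how the transcripts differed in cells depleted of mitochondrial DNA. In control medium, 2 members were higher in ρ0 cells (EPAS1 and EGLN3) and 4 were lower (CA12, NDRG1, ANKRD37 and BNIP3), against 30.5% and 31.8% of all tested genes (62.3% in all). With the fold threshold, the same comparison gave 2 higher and 2 lower, against 13.6% and 17.3%. After starvation, 5 were higher (HIF1A, EPAS1, NDRG1, EGLN3 and BNIP3L) and 2 were lower (BNIP3 and ADM), against 32.9% and 33.5% (66.5% in all), and with the fold threshold 4 and 1, against 18.7% and 16.8%. The lines did not overlap for 2 members that were higher and 5 that were lower in ρ0 control cells (37.3% and 39.9% of all tested genes), and for 6 and 4 after starvation (44.7% and 46.0%). The median log2 difference of the members was -0.42 in control medium, against -0.01 over all tested genes, and 1.02 after starvation, against -0.01. These comparisons share their libraries with the starvation comparisons.

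**Figure D4:**
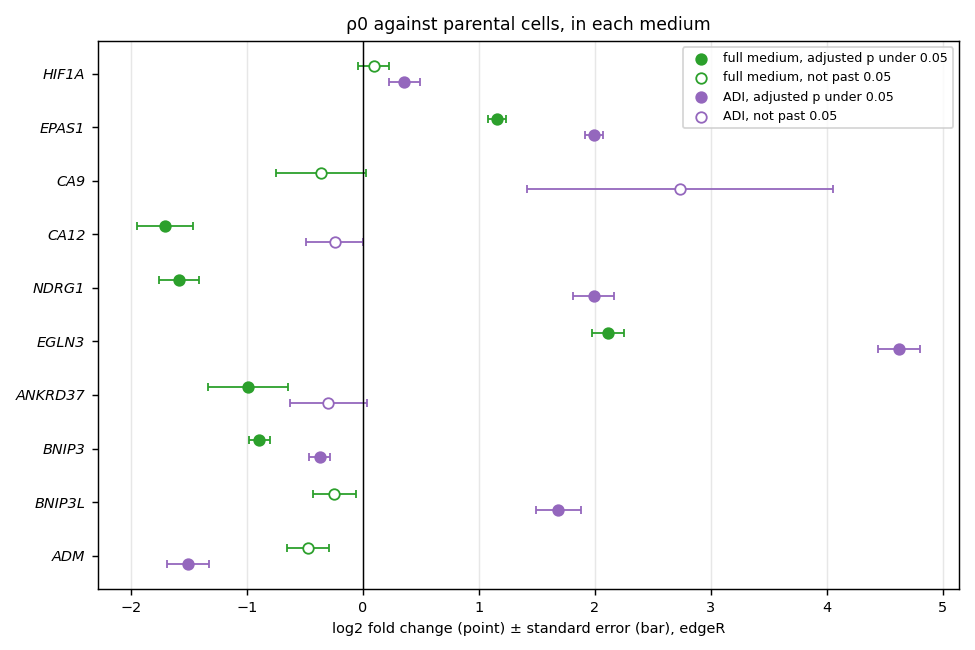
Log2 difference of ρ0 from parental cells for each member in control medium (green) and after starvation (purple), from edgeR, with filled points for an adjusted p under 0.05. The SE bars come from the fit to all 8 libraries, 2 per group, and do not show the spread of each group. NDRG1 lies at -1.58 and 1.99 and EGLN3 at 2.12 and 4.63, while BNIP3 lies below 0 in both media.

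The test of the difference between the 2 responses, ρ0 minus parental, was passed by 7 of the 10 members. In 6 of them (EPAS1, CA12, NDRG1, EGLN3, BNIP3 and BNIP3L) the value was above 0, and in 1 (ADM) it was below 0. Over all tested genes, 21.6% passed above 0 and 18.8% below (40.4% in all). With a size past 1 on the log2 scale the counts were 4 and 1, against 13.3% and 6.62%. The median of the members was 1.15, against 0.02 over all tested genes, and 9 of the 10 values were above 0. A value above 0 covers a smaller decrease in ρ0 cells (CA12, EGLN3 and, with a ρ0 value that did not pass, BNIP3), a larger increase (EPAS1), opposite directions (BNIP3L) and a decrease in parental cells beside a ρ0 value above 0 that did not pass (NDRG1).

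Compared per length, as CPM per kb of exon, the transcripts spanned a wide range. NDRG1 was the most abundant in parental control cells at 207, followed by HIF1A at 76.2 and BNIP3 at 55.6, and CA9 and EGLN3 were the least abundant at 1.37 and 1.29. After starvation HIF1A led in both lines, at 114 in parental and 146 in ρ0 cells. EPAS1 was at 23.5 in parental control and at 108 in ρ0 ADI. NDRG1 stood at 21.0 in parental ADI, below ADM at 98.1, BNIP3 at 33.1 and EPAS1 at 27.2. In ρ0 cells NDRG1 was at 68.9 in control and 83.5 in ADI.

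Among the other genes of the pathway, 52 were listed and 50 were tested, with HIF3A and NDUFA4L2 below the filter. In parental cells 16 (32%) were higher and 22 (44%) lower after starvation, against 30.4% and 35.5% of all tested genes. In ρ0 cells 18 (36%) were higher and 7 (14%) lower, against 19.2% and 22.1%. The count of 7 was 3 with the line fitted alone, and it moved in both directions when 1 ρ0 library was left out. The difference between the responses passed above 0 for 21 (42%) and below 0 for 11 (22%), against 21.6% and 18.8%, and its median was 0.51, against 0.02 over all tested genes. ARNT2, which can pair with the α subunits, was 5.05-fold lower in parental ADI (73.1 and 68.6 CPM against 14.6 and 13.5, adjusted p = 7.46e-06) and 1.94-fold lower in ρ0 ADI (adjusted p = 0.000417). EP300, a coactivator, was 2.89-fold higher in parental and 1.58-fold higher in ρ0 ADI (adjusted p = 1.47e-05 and 0.00142).

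In the group that senses oxygen and degrades HIF, 3 of 11 tested genes were higher and 5 lower in parental cells (27.3% and 45.5%, against 30.4% and 35.5% of all tested genes), and 4 were higher and 3 lower in ρ0 cells (36.4% and 27.3%, against 19.2% and 22.1%). The subunits of the VHL ligase did not move together. TCEB2 was lower in parental and ρ0 cells (log2 -0.37 and -0.60, adjusted p = 0.00363 and 0.000951). TCEB1 was higher in both (1.28 and 0.27, adjusted p = 1.41e-05 and 0.0248). VHL was lower in parental and higher in ρ0 cells (-0.26 and 0.54, adjusted p = 0.0372 and 0.0034). CUL2 passed as lower in parental cells only (-0.50, adjusted p = 0.00171), and RBX1 in ρ0 cells only (-0.50, adjusted p = 0.0213). Of the 7 target regulators of transcription and chromatin, 2 were higher (28.6%) and 1 lower (14.3%) in parental cells, and 3 were higher (42.9%) and 0 lower in ρ0 cells, against the same shares of all tested genes (0 lower in ρ0 cells also at an unadjusted p under 0.05 in edgeR and in DESeq2 and limma-voom). MXI1, which antagonizes MYC, was at 25.4 and 16.8 CPM in ρ0 control and at 93.1 and 89.9 CPM in ρ0 ADI, a 4.34-fold difference (adjusted p = 0.000218), whereas in parental cells it was at 76.2 to 91.0 CPM in both groups (log2 0.19, adjusted p = 0.333). BHLHE40, a transcriptional repressor, was 2.39-fold higher in ρ0 than in parental control cells (adjusted p = 2.71e-05). Its relative BHLHE41 was lower in ρ0 than in parental cells after starvation, by a log2 value of -1.15 (adjusted p = 0.000102). On starvation it was higher in parental cells (log2 1.17, adjusted p = 0.000104), and its ρ0 value of 0.19 did not pass (adjusted p = 0.235).

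The 6 matrix enzymes hydroxylate or crosslink collagen. In parental cells all 6 were lower after starvation (median log2 -1.37), against 35.5% of all tested genes. In ρ0 cells (median 0.08) 0 passed in either direction in edgeR, 0 had an unadjusted p under 0.05, and 0 passed in DESeq2 or limma-voom. The difference between the responses passed above 0 for all 6, against 21.6% of all tested genes. Between the control lines, 2 were higher in ρ0 cells (P4HA2 and LOXL2) and 3 were lower (P4HA1, PLOD2 and LOX), against 30.5% and 31.8%, and after starvation 3 were higher (P4HA2, LOXL2 and PLOD1), against 32.9%. LOX, a collagen crosslinking oxidase, was at 121 and 111 CPM in parental control and 32.2 and 33.0 CPM in parental ADI (adjusted p = 0.00141), and at 60.3 and 27.2 CPM in ρ0 control and 53.8 and 51.5 CPM in ρ0 ADI (adjusted p = 0.516). Its responses differed by 2.10 (adjusted p = 0.00827). P4HA2, a collagen prolyl hydroxylase, was 2.98-fold higher in ρ0 than in parental control cells and 8.79-fold higher after starvation (adjusted p = 2.61e-05 and 1.77e-06). LOXL2 was 7.15-fold higher in ρ0 than in parental cells after starvation (adjusted p = 6.5e-06).

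Of the 11 secreted and surface proteins, 7 were higher and 2 lower in parental ADI (63.6% and 18.2%, against 30.4% and 35.5% of all tested genes), and 5 were higher and 1 lower in ρ0 ADI (45.5% and 9.09%, against 19.2% and 22.1%). VEGFA, the main growth factor of vessels, was at 338 and 250 CPM in ρ0 control and at 1049 and 1039 CPM in ρ0 ADI, a 3.55-fold difference (adjusted p = 0.000185), and 1.76-fold higher in parental ADI (adjusted p = 0.00136). IGFBP3, which binds insulin-like growth factors, was 4.18-fold higher in ρ0 ADI (adjusted p = 0.000813) and had a log2 value of -0.47 in parental ADI (adjusted p = 0.123), and it was 7.10-fold higher in ρ0 than in parental cells after starvation (adjusted p = 5.78e-05). EDN1, the vasoconstrictor endothelin, was higher in parental and lower in ρ0 ADI (log2 0.80 and -0.82, adjusted p = 0.000223 and 0.000902). After starvation it was 9.19-fold lower in ρ0 than in parental cells. TFRC, the transferrin receptor, was 2.82-fold higher in parental ADI (adjusted p = 3.64e-05). The chemokine receptor CXCR4 had 1931 counts in parental control and 3 in ρ0 control, a ratio of 621 with an exact 95% interval of 212 to 3010, and was 4.47-fold lower in parental ADI (adjusted p = 1.78e-05). EFNA1, an ephrin, was lower in ρ0 cells in both media (log2 -2.39 and -1.95, adjusted p = 2.23e-05 and 4.83e-05). ANGPTL4 was at 2.16 and 2.02 CPM in parental control and at 11.0 and 10.5 in parental ADI, and at 12.3 to 19.3 CPM in the ρ0 libraries, so that its responses differed by -2.36 (adjusted p = 0.00155).

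Of the 11 tested genes of stress and metabolism, 2 were higher and 6 lower in parental ADI (18.2% and 54.5%, against 30.4% and 35.5% of all tested genes), and 4 were higher and 2 lower in ρ0 ADI (36.4% and 18.2%, against 19.2% and 22.1%). HMOX1, heme oxygenase, was at 9.62 and 11.5 CPM in parental control and at 91.2 and 93.3 CPM in parental ADI, an 8.74-fold difference (adjusted p = 8.15e-06). In ρ0 cells it was at 41.8 and 52.8 CPM in control and at 78.7 and 74.0 CPM in ADI (log2 0.69, adjusted p = 0.00515), which left a difference of -2.44 between the responses (adjusted p = 0.000258). TMEM45A differed between the responses by -1.66 (adjusted p = 0.0223), a call that was lost without any 1 of the parental or ρ0 ADI libraries (adjusted p from 0.0599 to 0.0871) and a value that was -1.01 without ρ0 control replicate 2. MIR210HG, the host transcript of a hypoxia-induced microRNA, fell below the level set for naming and was chosen after its values were seen. It had 224 and 196 counts in parental control, 4 and 7 in parental ADI, 233 and 158 in ρ0 control and 126 and 114 in ρ0 ADI. Its log2 fold change was -5.01 ± 0.35 in parental cells (adjusted p = 2.45e-05) and -0.55 ± 0.24 in ρ0 cells (adjusted p = 0.101).

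**Figure D5:**
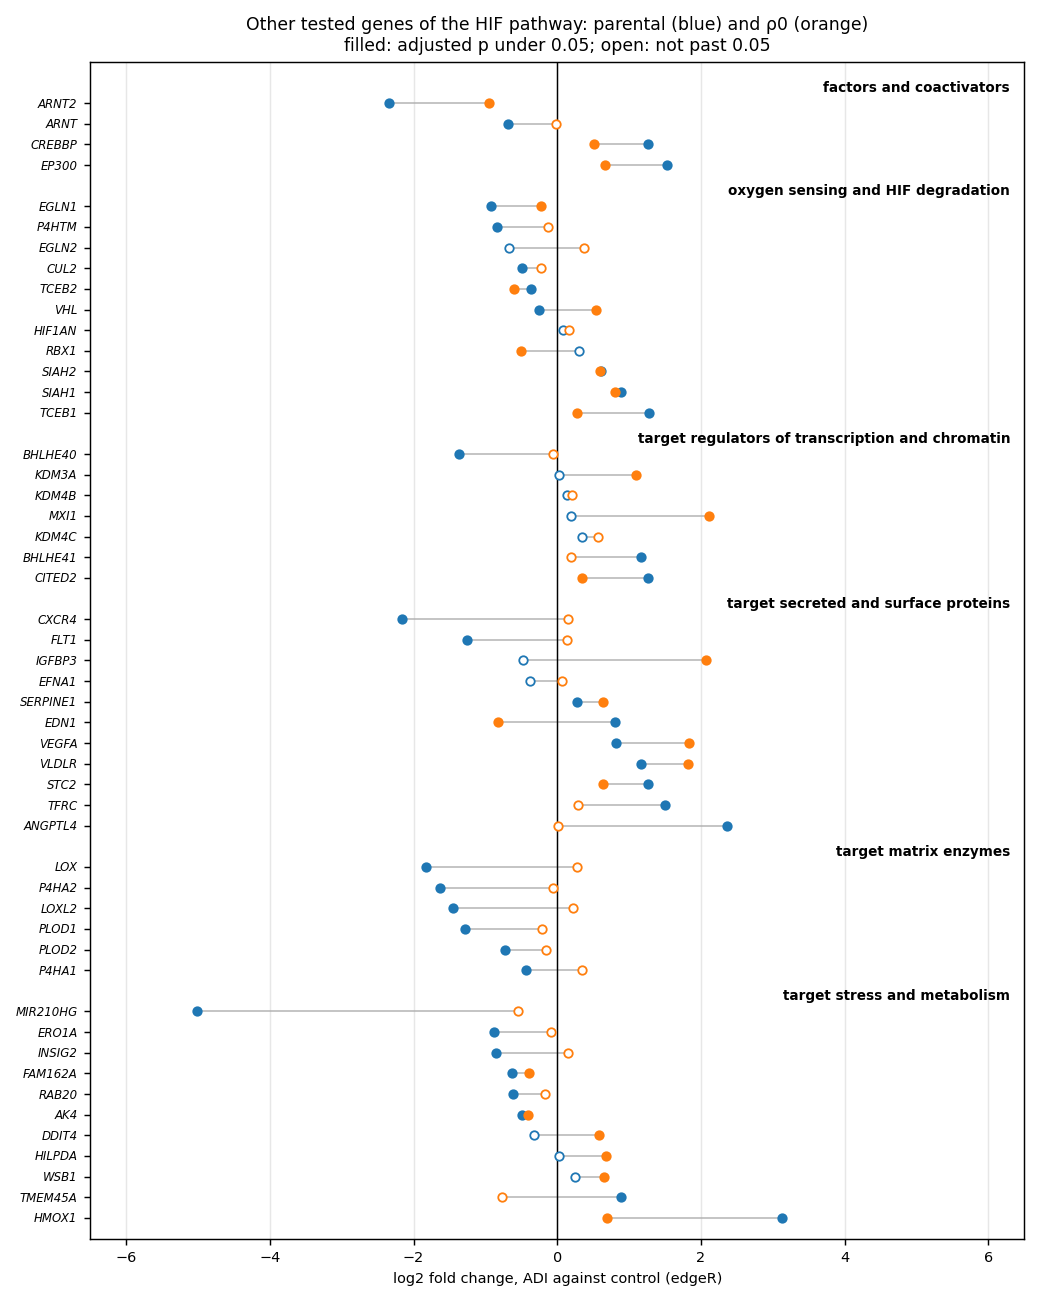
Log2 fold change on starvation in parental (blue) and ρ0 (orange) cells, from edgeR, of the 50 tested genes of the pathway that are not members, grouped by role, with filled points for an adjusted p under 0.05 and a grey line between the 2 values of a gene. All 6 matrix enzymes are filled and left of 0 in parental cells and open near 0 in ρ0 cells, and MIR210HG lies at -5.01 and -0.55.

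Across the 8 libraries, the genes whose log2(CPM + 1) pattern was most like that of HIF1A were FNDC3B, TMED4, LRIG2, NCOA3 and TCP11L1 (Pearson r from 0.991 to 0.998), among 9951 genes with a mean of at least 10 CPM. For EPAS1 they were ZNF558, LYPLAL1, PPP1R26, JARID2 and KIF3A (0.994 to 0.997), and for CA9 they were WIPF1, ARHGAP18, IQGAP3, NUMA1 and COL8A1 (0.986 to 0.994). CA9 had 1 and 0 counts in parental ADI and 4 and 4 in ρ0 ADI, so its pattern is mainly a split between control and ADI libraries. These are descriptions over 4 groups of 2 libraries, in which libraries of a group share their condition.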

How the data were processed

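For the 8 libraries the authors deposited 1 table of raw counts by gene symbol. The processing notes of the labels list Bowtie, Partek and hg19, without versions, and the annotation, the counting rule and the use of strand are not given in the sources used here. The table held 0 columns of other series. Counts were tested in edgeR 4.0.16 (R 4.3.3) with filterByExpr, TMM factors, 1 mean per group and the quasi-likelihood F test on all 8 libraries (4 residual degrees of freedom), and p-values were adjusted by Benjamini-Hochberg over 15262 genes. The methods of the study name no test for the RNA-seq counts. A gene passed at an adjusted p under 0.05. SE was derived from the log2 fold change and its F statistic. It therefore carries the spread pooled over all 8 libraries, not that of the compared groups alone. CPM were counts scaled to the library total times its TMM factor, and markers were scaled by the total alone. Between 25259503 and 31022155 counts per library, 3 counts correspond to 0.0967 to 0.119 CPM before TMM, and all intervals cover counting error only.

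The labels do not say whether replicates were separate cultures, so p-values measure the spread between these samples. In the fit the 4 groups shared the estimate of that spread. Over all genes its coefficient of variation was 12.4%, against 25% within ρ0 control and 1.83% to 5.18% within the other groups. Comparisons with ρ0 control were thus tested against a smaller spread than its own, and the others partly against its spread. The members and lists were chosen with earlier results of these data known. All members are named. Of the other pathway genes, at most 3 per comparison and direction are named: the largest changes among those that passed, averaging 10 CPM or more, where the groups did not overlap. Named beside these are MIR210HG, the other VHL ligase subunits and the remaining matrix enzymes. For HIF1A, EPAS1 and CA9, the 5 most correlated genes are named. Alternatives were DESeq2 1.42.0, limma-voom 3.58.1 with and without a weight per group, other scales and filters, each line alone, the replicate number as a block, and leaving out each library. Promoters are from RefSeq GRCh38.p14, used for sequence only, and exon lengths from GENCODE gene models.

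Marker lists were checked as summed CPM, given as ranges in the order parental control, parental ADI, ρ0 control and ρ0 ADI. The mesenchymal list gave 4860 to 4940, 2310 to 2340, 7470 to 8620 and 5770 to 5910. The luminal and epithelial list gave 67.3 to 70.1, 33.7 to 34.7, 141 to 144 and 89.0 to 89.6. The fibroblast list gave 20.4 to 23.0, 10.9 to 11.4, 12.4 to 27.7 and 7.45 to 9.86, the endothelial list at most 3.41 and the immune list at most 0.487, with CD3E at 0. Their part in the results was not tested.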

Additional observations from a re-analysis of the deposited data

Results flagged for a closer look

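The results in this part are those whose response to starvation differed between the lines by the test of the difference itself, given as the log2 response of ρ0 minus that of parental cells. Among the members these were NDRG1 (3.58), EGLN3 (2.51), BNIP3L (1.93), CA12 (1.46), EPAS1 (0.83), BNIP3 (0.52) and ADM (-1.04). Of the other tested pathway genes, 21 of 50 passed above 0 and 11 below 0, and not all are repeated here. The 3 largest differences per direction at a mean of 10 CPM or more were IGFBP3 (2.54), LOX (2.10), MXI1 (1.92), HMOX1 (-2.44), ANGPTL4 (-2.36) and TMEM45A (-1.66). Groups of 2 libraries are too small for a check of single outlying libraries.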

How the results depend on the processing

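The members' single values kept their direction and side of the threshold in 437 of 465 results under other settings and in 336 of 400 with 1 library left out. With the fold threshold added, the counts were 1 higher in parental cells (3 without it), 1 higher and 1 lower in ρ0 cells (3 and 3), 2 lower between the control lines (4) and 1 lower between the starved lines (2). With each line fitted alone, 1 member was lower in ρ0 cells. With 1 library left out, a setting in which a lone library is assumed to vary like the other groups, the counts higher and lower ranged from 1 to 3 and 6 to 6 in parental cells, 2 to 5 and 1 to 4 in ρ0 cells, 2 to 3 and 3 to 8 between the control lines, 4 to 6 and 1 to 3 between the starved lines and 4 to 9 and 0 to 1 for the difference between responses. Leaving out a ρ0 control library removes, by construction, the most widely spread pair of replicates from the estimate of the spread. Directions turned for ANKRD37 in parental cells (-0.07 with the upper quartile, -0.11 with total counts and, without parental ADI replicate 2 or 1, -0.06 or 0.15), for ADM in ρ0 cells (-0.08 or 0.56 without ρ0 control replicate 1 or 2), and between the control lines for HIF1A (-0.01 with total counts and, without ρ0 control replicate 1 or 2, -0.14 or 0.35), CA9 (-0.95 or 0.10) and BNIP3L (-0.61 or 0.10). The cause was not tested. The median of all genes in parental cells was -0.07 with TMM, -0.19 with the upper quartile and -0.23 with total counts. The median for the difference between responses was 0.02, 0.12 and 0.11. In ρ0 cells, the calls over all genes were 2937 higher and 3371 lower in edgeR, 1462 and 1665 with the line fitted alone and 1797 and 2196 with a weight per group. ADM between the control lines, with an adjusted p of 0.0509, passed under most other settings with all libraries, among them DESeq2 and limma-voom (0.0312 and 0.0415). The replicate numbers did not pair the libraries (correlations of deviations from -0.124 to 0.073). With the replicate block, 2 members were higher and 6 lower in parental cells, 3 and 3 in ρ0 cells, 2 and 5 between the control lines, 6 and 2 between the starved lines and 6 and 1 for the difference between responses.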
